A study of Mus musculus with 3 samples.

Results

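Endo_a is the largest of 3 endothelial cell (EC) clusters that the authors drew in single cells of the mouse renal medulla. Its members are the cells that carry the cluster label Endo_a in the deposited annotation, 16020 of 181257 cells in all and of 21707 ECs. The other ECs are 2192 cells of Endo_b and 3495 cells of EndoVR/papilla. The cells came from male BALB/c mice, either healthy controls or animals studied on day 28 or day 84 after R-UUO, a reversible obstruction of 1 ureter by a clamp that is later taken off, with the opposite kidney removed afterwards. Each pool held 3 to 4 dissected papillae, which gave 4 pools of healthy controls, 4 of day 28 and 2 of day 84. The labels call the tissue kidney papilla, and the pool, not the cell or the animal, is the replicate. The paper also split its ECs into finer populations, among them angiogenic capillaries that increased after R-UUO, which are not used here. By CD31 staining it reported a lower EC density in the inner medulla at day 84.

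ECs line the inside of blood vessels. In the medulla the vessels run as bundles of straight descending and ascending vasa recta with capillaries between them, and the slow countercurrent flow through them carries water and solutes away without washing out the salt gradient on which urine concentration depends. Pecam1, an adhesion molecule at the junctions between ECs, and Emcn, a sialomucin on the EC surface, are the markers given for Endo_a. The files used here hold no values of single genes, so the markers could not be looked at, and Endo_a is called by the authors' label throughout. What the files give for each cell is its pool, its cluster, its number of unique molecular identifiers (UMIs, a count of captured RNA molecules), its number of detected genes and its percentage of mitochondrial UMIs.

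The pools held 13013 to 24338 cells. D28 1, the first pool of day 28, stood apart by depth, with a median of 3302 UMIs per cell against 751 to 2209 in the other pools. The share of proximal tubule cells, which belong to the outer medulla and cortex, ran from 0.113% in Control 4 to 22.8% in D28 1. Shares are therefore also given without these cells, but other clusters of the outer medulla stay in. Of these, OSOM-TAL_b, thick limb cells of the outer stripe, ran from 0.194% to 11.4% of a pool. The paper states that the outer medulla in the dissected tissue varied, which limits how precisely its cell populations can be quantified. How far the dissection moved the values below was not tested. Pools of a group had a median of 25.4% of droplet barcodes in common, measured on the smaller pool of each of 13 pairs, against 2.78% for the 32 pairs of pools from different groups. Each group thus looks like a droplet run of its own, and group and run cannot be told apart in any comparison below.

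Endo_a made up a larger part of the ECs at day 28. Its share was 62.4%, 71.1%, 65.8% and 59.8% of ECs in the 4 control pools, 91.2%, 90.2%, 83.8% and 91.0% at day 28, and 71.8% and 74.4% at day 84. All day 28 pools lay above all control pools, and both day 84 pools lay between the 2 other groups. The control pools had a mean of 64.7% ± 4.90 (SD, n = 4 pools). The day 28 pools had a mean of 89.0% ± 3.53 (SD, n = 4 pools). The 2 day 84 pools had a mean of 73.1% ± 1.85 (SD, n = 2 pools). The 95% Wilson intervals of single pools cover counting error only. They were at most a few percentage points wide, as in Control 1 with 60.6% to 64.1%, and the spread between control pools was larger. At day 84 the intervals of the 2 pools overlapped (69.7% to 73.7% and 72.5% to 76.1%).

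The rise at day 28 was 2.18 in log2 odds (standard error, SE, 0.304, limma adjusted p = 1.5e-04), which is 4.54 times the odds of the controls with a 95% interval of 2.84 to 7.24. In the fit over the 23 clusters that share their cell type with another cluster, 82.6% of clusters passed at this time, so a call as such does not set Endo_a apart. An exact two-sided permutation test gave p = 0.0286, the smallest possible with 4 pools in each group. Leaving out any 1 of the 10 pools gave changes from 2.08 to 2.41, and each passed.

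At day 84 the share of ECs did not pass against the controls, with a change of 0.56 (SE 0.372, 95% interval -0.27 to 1.38, limma adjusted p = 0.22), where 39.1% of clusters passed. A stricter cell filter, with at least 500 detected genes per cell and at most 5% mitochondrial UMIs, turned the direction to -0.23 (adjusted p = 0.74). With 4 pools against 2 an exact permutation test cannot give less than p = 0.0667. Between day 28 and day 84 the share fell by 1.63 (SE 0.372, limma adjusted p = 0.0156), where 17.4% of clusters passed. That call was lost in a fit on these 2 groups alone (adjusted p = 0.0627) and without D28 1, D28 2, D84 1 or D84 2, with an adjusted p of 0.0526, 0.0525, 0.116 and 0.0568 in that order.

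A share of ECs moves with the other 2 clusters as well as with Endo_a. EndoVR/papilla made up 27.1%, 18.3%, 27.1% and 30.8% of ECs in the control pools, 6.36%, 4.78%, 13.5% and 0.463% at day 28, and 3.82% and 10.3% at day 84. Endo_b made up 10.5%, 10.6%, 7.18% and 9.49% in controls, 2.42%, 5.04%, 2.74% and 8.56% at day 28, and 24.4% and 15.3% at day 84. EndoVR/papilla was thus lower in every R-UUO pool than in any control pool, while Endo_b was lower than in any control pool in 3 of the 4 day 28 pools, with D28 4 above Control 3, and higher than in any control pool in both day 84 pools. With EndoVR/papilla left out of the ECs, the odds of Endo_a are its ratio to Endo_b, the same quantity as given again among the ratios below. This rose by 1.64 at day 28 (limma adjusted p = 0.0040), and its change at day 84 turned to -0.87 (adjusted p = 0.16).

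**Figure D1:**
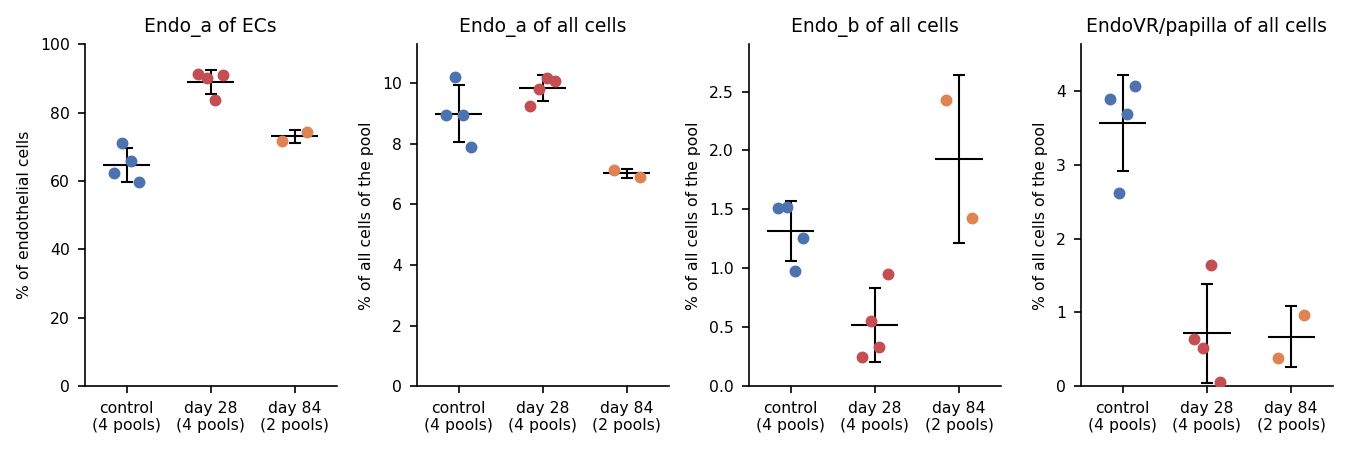
Share of Endo_a among ECs and share of each EC cluster among all cells, in percent, for each pool (points) with the group mean (horizontal line) and SD (error bar). Endo_a holds 83.8% to 91.2% of ECs in the day 28 pools, above every control pool, and its share of all cells runs from 6.92% to 10.2% over the 10 pools as deposited.

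Among all cells, Endo_a did not pass a test of change at day 28, and it was lowest in the day 84 pools. It made up 8.94%, 10.2%, 8.96% and 7.90% of cells in the control pools, 9.26%, 9.83%, 10.2% and 10.1% at day 28, with 7.13% and 6.92% in the day 84 pools. The control and day 28 pools overlapped, and both day 84 pools lay below all others. The change at day 28 was 0.15 in log2 odds (SE 0.159, 95% interval -0.21 to 0.51, limma adjusted p = 0.39). This was 1 of the 3 clusters that did not pass, since 88.0% of the 25 clusters did. In odds the interval of this fit runs from 0.862 to 1.42 times the control level.

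At day 84 the share of all cells changed by -0.38 (SE 0.195, 95% interval -0.82 to 0.06, limma adjusted p = 0.13), where 48.0% of clusters passed. From day 28 to day 84 the change was -0.53 (SE 0.195, adjusted p = 0.0858), where 8.00% passed. Both depended on the cells kept. Under the stricter cell filter the change from control was -1.37 (adjusted p = 0.0048) and that from day 28 was -1.53 (adjusted p = 0.0110). At day 84, 43.5% and 74.5% of Endo_a cells in the 2 pools had under 500 genes, against 13.8% and 26.5% of all other cells. EndoVR/papilla had still larger shares of such cells, 54.7% and 84.6%. In the control pools 6.16% to 18.0% of Endo_a cells were under 500 genes, and 1.24% to 13.4% at day 28.

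The filter that the study states, 300 detected genes, also lay closer to Endo_a in D84 2 than elsewhere. There 37.9% of Endo_a cells and 47.8% of EndoVR/papilla cells had under 400 genes, and 6.84% of all cells other than Endo_a. In D84 1 the share was 2.91% of Endo_a cells, 2.67% of EndoVR/papilla cells and 0.507% of all cells other than Endo_a, and 0 of 7129 control Endo_a cells were under 400 genes, which allows a share of up to 0.0421% (counting error only). How many Endo_a cells of day 84 fell under the floor before deposit was not tested.

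Without proximal tubule cells in the denominator, Endo_a was 8.98%, 10.5%, 9.06% and 7.91% of cells in the controls, 12.0%, 12.5%, 11.7% and 10.4% at day 28, and 7.40% and 7.49% at day 84. D28 4 lay just under Control 2, and the other 3 day 28 pools lay above all controls. The rise at day 28 was 0.40 (SE 0.169, limma adjusted p = 0.0464), in a fit where 90.5% of the 21 clusters passed. It was a call at the edge: the exact permutation test gave p = 0.0571, the fit on these 2 groups an adjusted p of 0.0675, the stricter cell filter 0.146, and of the 10 fits with 1 pool left out only those without Control 2 or D28 4 kept it. At day 84 the change was -0.31 (adjusted p = 0.23, with 47.6% of clusters passing), and -1.28 under the stricter filter (adjusted p = 0.0044). Between day 28 and day 84 the share fell by 0.71 (SE 0.207, adjusted p = 0.0373, with 19.0% of clusters passing), with an adjusted p of 0.0791 in the fit on those 2 groups. With 1 pool left out the change ran from -0.77 to -0.67. The call was lost without Control 1, Control 3, D28 1, D28 2 or D28 3, among others.

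In the cells as deposited, Endo_a had the smallest relative spread of its share over the 10 pools of all 25 clusters. Its highest share was 1.47 times its lowest, and its coefficient of variation was 0.139. The next cluster in that order was Peri, with 2.14 times and 0.248, followed by IC with 3.00 times and 0.254. Of the other ECs, Endo_b spanned 9.88 times and EndoVR/papilla 79.1 times. Endo_a had the most cells of any cluster in D28 1 and D28 3, and its rank by cell number was between 2 and 7 in the other pools. This place in the order depended on the cells kept. Under the stricter cell filter, tried here after seeing the data, the share ran from 7.29% to 10.8% in controls, from 9.40% to 9.50% at day 28, and was 4.80% and 2.54% at day 84. The highest share was then 4.24 times the lowest, and the coefficient of variation of 0.315 ranked 5 of 25, after Peri, DTL, IC and OSOM-TAL_a. These are descriptions and carry no test.

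**Figure D2:**
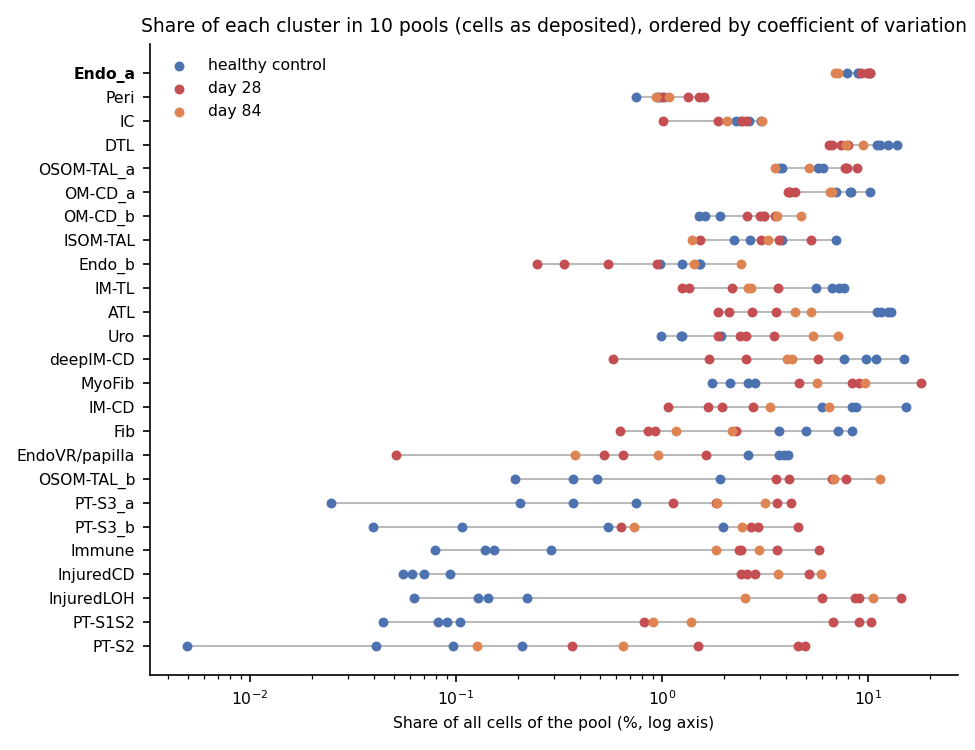
Share of each of the 25 clusters among all cells of a pool (percent, log axis), with 1 point per pool coloured by group and clusters ordered by coefficient of variation. In the cells as deposited the points of Endo_a, on top, span 1.47 times (4.24 times under the stricter filter), against 2.14 times for Peri and 79.1 times for EndoVR/papilla.

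To see what Endo_a changed against, its cell number was divided by that of each of the 24 other clusters in the same pool. At day 28 Endo_a rose against 9 clusters and fell against 11, so 83.3% of ratios passed, and the median change over all 24 was -0.46. The groups of the ratio did not overlap for 18 of the 24 clusters. The 4 that did not pass, named after their values were seen, were IC (0.61), ISOM-TAL (0.34), Peri (-0.42) and OM-CD_b (-0.51), all in log2.

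Against the other ECs, Endo_a rose at day 28. There were 5.93, 6.70, 9.16 and 6.29 Endo_a cells for each Endo_b cell in the control pools, 37.7, 17.9, 30.6 and 10.6 at day 28, with 2.94 and 4.86 in the day 84 pools. The day 28 pools were all above the controls and the day 84 pools all below. The ratio rose by 1.64 in log2 at day 28 (SE 0.403, limma adjusted p = 0.0045). At day 84 it changed by -0.87 from control (SE 0.494, 95% interval -1.99 to 0.25, adjusted p = 0.16), and by -1.98 under the stricter cell filter (adjusted p = 0.0077). From day 28 to day 84 it fell by 2.51 (SE 0.494, adjusted p = 0.0079), where 29.2% of ratios passed, but not without D84 1 (adjusted p = 0.0558).

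For each EndoVR/papilla cell there were 2.30, 3.89, 2.43 and 1.94 Endo_a cells in the controls, 14.3, 18.9, 6.21 and 196.5 at day 28, and 18.8 and 7.20 at day 84. Every R-UUO pool was above every control pool. The value of D28 4 rests on 8 EndoVR/papilla cells. The rise at day 28 was 3.21 in log2 (SE 0.916, limma adjusted p = 0.0094), and it stayed between 2.22 and 3.85 with any 1 pool left out. At day 84 the change was 2.18 (SE 1.12, 95% interval -0.35 to 4.72, adjusted p = 0.13), and leaving out D28 4, which enters only through the shared spread, gave an adjusted p of 0.0092.

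Outside the ECs, the clusters of at least 100 cells per group against which Endo_a rose most at day 28 were, after EndoVR/papilla, the fibroblasts labelled Fib (2.61, SE 0.475, limma adjusted p = 0.0011) and deepIM-CD, collecting duct cells (2.57, SE 0.619, adjusted p = 0.0043). Those against which it fell most were InjuredLOH (-6.00, SE 0.505, adjusted p = 9.8e-06), Immune (-4.32, SE 0.392, adjusted p = 1.2e-05) and PT-S3_a, a proximal tubule cluster (-3.44, SE 0.894, adjusted p = 0.0058).

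At day 84 Endo_a rose against 1 cluster and fell against 9, and 41.7% of ratios passed. Under the stricter cell filter there were 0 rises and 15 falls. That filter took out a larger part of Endo_a than of the other cells together in the day 84 pools, which by itself moves such counts. With 1 pool left out there were 0 to 4 rises, 4 of them without D28 4, and 7 to 10 falls. The rise was against ATL (0.95, SE 0.311, limma adjusted p = 0.0322), and was lost in 5 of the 10 fits with 1 pool left out and under the stricter cell filter. Among clusters of at least 100 cells in both groups, the largest falls were against InjuredLOH (-5.68, SE 0.618, adjusted p = 6.9e-05), OSOM-TAL_b (-4.47, SE 0.755, adjusted p = 0.0011) and Immune (-4.30, SE 0.480, adjusted p = 6.9e-05). At an unadjusted limma p under 0.05, 10 ratios were called from day 28 to day 84, 0 of them rises. By adjusted p Endo_a fell against 7 clusters and rose against 0. The falls numbered 0 without D84 1, 2 without D84 2 and 4 without D28 2, and the range with 1 pool left out was 0 to 9.

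**Figure D3:**
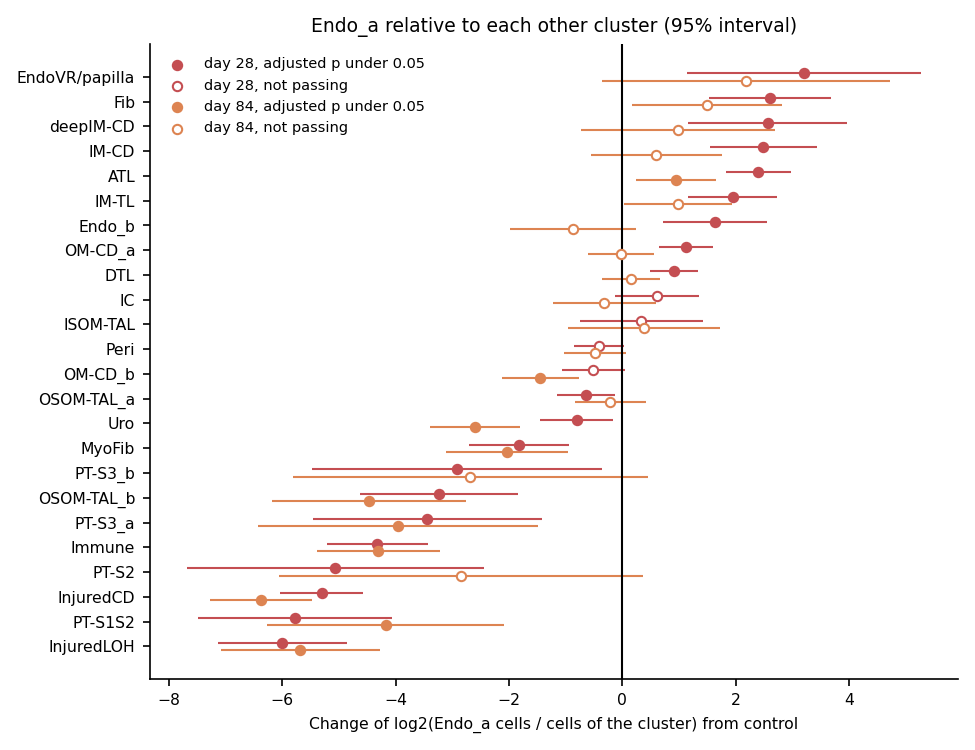
Change from control of the log2 ratio of Endo_a cells to the cells of each other cluster, at day 28 and day 84, with 95% limma intervals (bars) and filled points where the adjusted p was under 0.05. At day 28 Endo_a rose against 9 clusters, EndoVR/papilla (3.21) first, and fell against 11, InjuredLOH (-6.00) most.

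Few UMIs were counted per Endo_a cell in every pool. The median UMI count was 786, 914, 798 and 800 in the control pools, 1954, 1210.5, 1027.5 and 993 at day 28, with 622 and 518 in the day 84 pools. The day 28 pools were all above the controls, and the day 84 pools below. The order of the groups was that of the cells around them, whose median counts were 1173, 1705, 1219 and 1249, then 3500.5, 2375, 2012 and 1664, then 955 and 782. Endo_a was among the 4 clusters with the lowest medians of the 25 in each pool. The median numbers of detected genes followed, with 682, 726.5, 649 and 650 in controls, 1308, 894, 776 and 766.5 at day 28, and 521 and 427 at day 84.

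Set against the other cells of its pool, the median UMI count of Endo_a was 0.670, 0.536, 0.655 and 0.640 of theirs in controls, 0.558, 0.510, 0.511 and 0.597 at day 28, with 0.651 and 0.662 in the day 84 pools. The groups overlapped. The change was -0.20 in log2 at day 28 (SE 0.0960, 95% interval -0.41 to 0.01, limma adjusted p = 0.12) and 0.08 at day 84 (SE 0.118, 95% interval -0.18 to 0.33, adjusted p = 0.64), in a fit where 35.3% and 11.8% of 17 clusters passed. For detected genes the changes were -0.12 (adjusted p = 0.18) and 0.06 (adjusted p = 0.66), with 35.3% and 17.6% of clusters passing.

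The direction at day 28 depended on the cells taken as baseline. Against the other ECs alone, Endo_a rose by 0.53 in UMI count (adjusted p = 0.0210) and by 0.49 in detected genes (adjusted p = 0.0233). With the stricter cell filter and all other cells as baseline it fell by 0.30 in UMI count (adjusted p = 0.0119) and by 0.20 in detected genes (adjusted p = 0.0288). With each other cluster given equal weight, a baseline added after seeing the data, the changes were 0.10 (adjusted p = 0.31) and 0.09 (adjusted p = 0.25).

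The 2 other EC clusters stood on either side. Endo_b had medians of 1619, 2166, 1534 and 1600 UMIs in controls, 4335, 2249, 1558 and 1658.5 at day 28, and 949 and 965.5 at day 84, above Endo_a in all 10 pools. EndoVR/papilla had 1188, 1366, 1338 and 1194 in controls, 1538, 1005, 921 and 577 at day 28, and 568 and 481.5 at day 84. It was above Endo_a in the 4 control pools and below it in the 6 R-UUO pools. Differences between clusters of 1 clustering are described here and not tested.

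**Figure D4:**
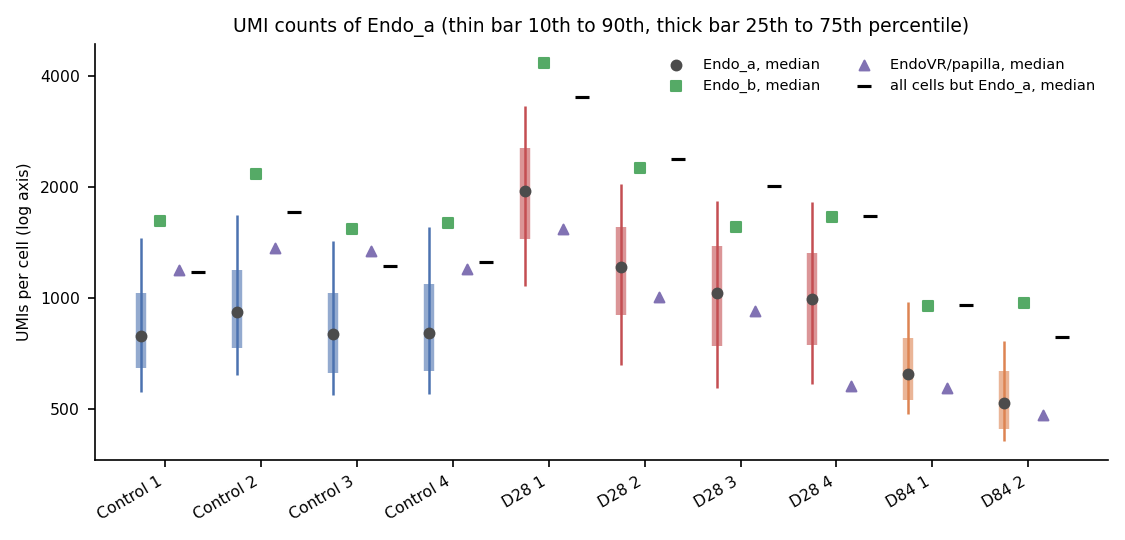
UMIs per cell (log axis) of Endo_a in each pool, with its median (circle), 25th to 75th percentile (thick bar) and 10th to 90th percentile (thin bar), beside the medians of Endo_b, EndoVR/papilla and all other cells. Endo_a lies under Endo_b and under the other cells in all 10 pools, and its medians run from 518 to 1954.

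The UMI counts of Endo_a cells also differed in spread. The 75th percentile was 1.60, 1.63, 1.65 and 1.72 times the 25th in the control pools, 1.77, 1.73, 1.87 and 1.78 times at day 28, and 1.47 and 1.43 times at day 84. The 3 groups did not overlap. This was not particular to Endo_a, since day 28 pools lay above all control pools in 8 of 17 clusters (47.1%), and day 84 pools below all control pools in 4 of 17 (23.5%), Endo_a included. The difference in log2 between day 28 and control was 0.115 (exact two-sided permutation p = 0.0286, the smallest possible), and it was -0.185 between day 84 and control (exact permutation p = 0.0667, the smallest possible there). Leaving out 1 pool raised the p of the first comparison to 0.0571 in 5 of 8 cases. The spread was widest in the most deeply read group and narrowest in the group nearest the gene floor, and the part of depth in it was not tested.

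Among cells of like depth, with 1000 to 2000 UMIs, Endo_a cells had a median of 1018, 921, 935 and 941 detected genes in controls, 1111, 973, 937 and 940 at day 28, with 868 and 697.5 in the day 84 pools. The last 2 medians rest on 119 and 30 cells, against 307 to 855 in the other pools. Relative to other cells in that range, these were 0.958, 0.884, 0.935 and 0.949 in controls, 1.04, 0.882, 0.872 and 0.876 at day 28, and 0.849 and 0.729 at day 84. Both day 84 pools lay below all others, and D28 1 was the only pool above 1.

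The change at day 28 was -0.03 in log2 (SE 0.0628, 95% interval -0.16 to 0.11, limma adjusted p = 0.69), where 60.0% of 10 clusters passed. At day 84 it was -0.24 (SE 0.0769, adjusted p = 0.0297, with 40.0% passing). From day 28 to day 84 it was -0.22 (adjusted p = 0.0270, with 70.0% passing). The latter was -0.11 without D84 2, and the limma fit on those 2 groups alone gave an adjusted p of 0.0911. Without D84 2 the change at day 84 was -0.13 (adjusted p = 0.42), and each of the 4 control pools left out in turn gave an adjusted p from 0.0509 to 0.0648. Among cells with 500 to 1000 UMIs, the change was 0.23 at day 28 (adjusted p = 4.1e-04) and 0.05 at day 84 (adjusted p = 0.48). The values at day 84 thus had opposite signs in the 2 ranges, and the difference between the ranges was not tested.

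In the deposited values of the R-UUO pools, mitochondrial UMIs were scarce in most clusters and nearly absent from Endo_a. The mean percentage was 0.954%, 1.56%, 1.05% and 1.05% in the control pools, 0.0650%, 0.0105%, 0.00704% and 0.0136% at day 28, and 0.0453% and 4.3e-04% at day 84. Of Endo_a cells, 0.114%, 0.121%, 1.16% and 1.74% had no mitochondrial UMI in controls, 60.8%, 91.5%, 96.1% and 92.3% at day 28, and 81.6% and 99.8% at day 84. Control and R-UUO pools did not overlap on either measure. The other cells moved the same way, with means of 1.48% to 2.52% in controls, 0.156% to 0.570% at day 28, and 0.144% and 0.113% at day 84. The clusters were unequal in this. ISOM-TAL, named after its values were seen, kept 1.79% to 3.76% at day 28 and 2.60% and 3.23% at day 84, from 4.16% to 5.31% in controls, and PT-S2 had 1.32% to 2.01% at day 28, 1.22% in D84 1 and a mean of 0 in D84 2, from 2.33% to 5.86% in controls. The 2.33% of PT-S2 in controls rests on 1 cell in Control 4. At most 3 of the 25 clusters had a mean above 1% in an R-UUO pool. Condition and droplet run cannot be told apart in this fall. The study also subtracted ambient RNA, as described below, and the part of that step in the fall was not tested.

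Relative to the other cells of the pool, the share of Endo_a cells without a mitochondrial UMI changed by 1.12 in log2 odds at day 28 (95% interval -1.42 to 3.67, limma adjusted p = 0.65) and by 1.56 at day 84 (95% interval -1.56 to 4.68, adjusted p = 0.36), with 0.00% and 17.6% of 17 clusters passing. With 1 pool left out the first ran from 0.68 (without Control 1) to 2.14 (without Control 2), and the second from 0.34 (without D84 2) to 2.77 (without D84 1), and none passed. At day 28, where limma passed 0 of 17 clusters, 2 had an unadjusted p under 0.05 and 1 an exact permutation p under 0.05. The mean percentage of Endo_a lay below that of the other cells in every pool, by -0.531, -0.961, -0.658 and -0.791 percentage points in controls, -0.505, -0.191, -0.226 and -0.142 at day 28, with -0.0987 and -0.113 in the day 84 pools. How far ISOM-TAL carried the mean of the other cells differed between R-UUO pools. Without it the mean was 0.125% to 0.372% at day 28, from 0.156% to 0.570%, and 0.106% in D84 1, from 0.144%. In D84 2 that mean was 0.113% with ISOM-TAL and 6.0e-04% without it, and 17 of the 24 other clusters were at 0, so Endo_a at 4.3e-04% was above 19 of the 24 there. In the other 9 pools between 1 and 11 of the 24 clusters were below Endo_a. The gap narrowed by 0.47 percentage points at day 28 (SE 0.116, limma adjusted p = 0.0032) and by 0.63 at day 84 (SE 0.142, adjusted p = 0.0021), where 88.2% of clusters passed at each time, as both means came near 0. It did not pass with other ECs as baseline (changes of -0.04 and 0.07, adjusted p = 0.58 and 0.47) or among cells with 1000 to 2000 UMIs (-0.07 and 0.07, adjusted p = 0.54 and 0.64).

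**Figure D5:**
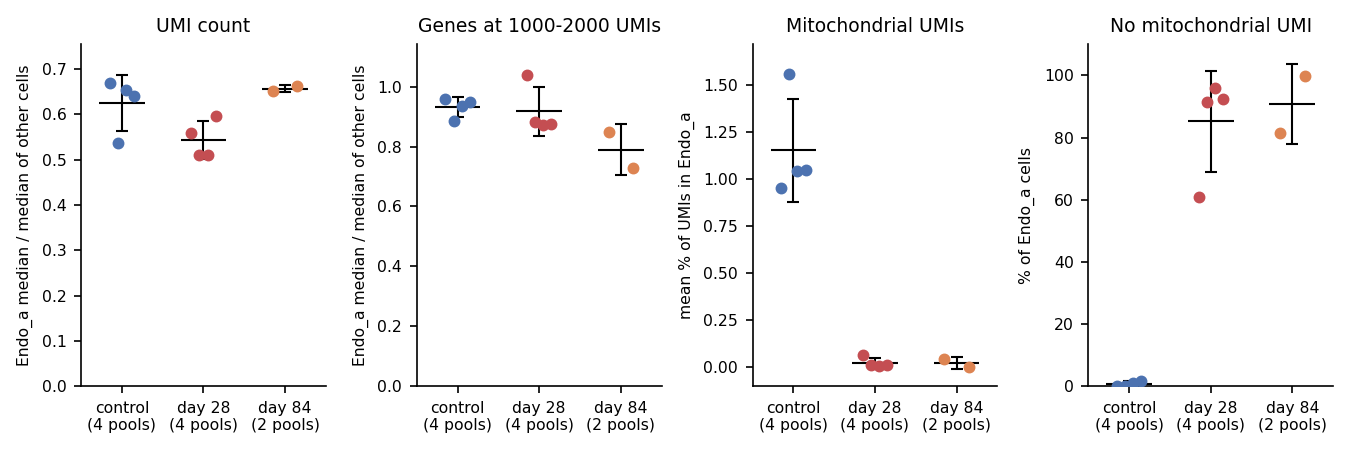
Median UMI count and median detected genes at matched depth of Endo_a as a ratio to other cells, mean mitochondrial percentage, and percentage of Endo_a cells with no mitochondrial UMI, for each pool (points) with the group mean (horizontal line) and SD (error bar). Mean mitochondrial percentages are 0.954% to 1.56% in controls and at most 0.0650% in R-UUO pools.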

How the data were processed

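Fixed single cells of dissected medullas were assayed with gene probes (10x Flex). The authors counted UMIs with Cell Ranger 7.1 on the mm10 build (submitters' processing notes), kept cells with at least 300 genes and up to 10% mitochondrial reads, and subtracted ambient RNA by SoupX. Cells called by scDblFinder or of mixed signature were dropped as doublets, and Seurat gave the clusters. The deposited values, 1 set per cell, are a UMI count (whole at days 28 and 84 and in most controls, an expected count with fractions in Control 1), a count of detected genes and a mitochondrial percent, with pool and cluster taken as given. In the deposited values 1 Endo_a cell of D28 4 and 3 of D84 2 lie under 300 genes. The GEO samples are the 3 groups, and pools were read from the pool column, 10 in all.

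Per pool, shares were turned into log2 odds and ratios into log2, with 0.5 cells added to both parts. Depth was the log2 ratio of the cluster's median to that of the pool's other cells, mitochondrial percent was a difference in percentage points, and these fits took clusters with at least 20 cells in every pool. All 3 groups entered each limma fit (3.58.1, R 4.3.3; lmFit, eBayes, two-sided), with Benjamini-Hochberg adjustment over all clusters in the fit and a threshold of 0.05. Exact permutation tests compared means over pools. Python 3.11.15, pandas 2.3.3 and matplotlib 3.10.9 made tables and plots, and the fits were tested on simulated data. The clusters named in ratios are the ECs and, at each time, the 3 with the largest passing change in each direction among those with at least 100 cells in both groups. No gene is named with a value. Alternatives were a stricter cell filter (at least 500 genes, at most 5% mitochondrial), leaving out the top 5% of cells by UMIs or, added after seeing the data, the lowest 25% by genes, other baselines, other tests, and each pool left out. The members and lists were chosen with earlier results of these data known. Nothing says that pools come from separate litters or days, so p-values measure the spread between these pools of several papillae. Depth per pool is in the text. Counting error is small beside that spread for the share of ECs in controls. It is not small for the share of all cells at day 84, where the Wilson intervals of the 2 pools overlap (6.78% to 7.50% and 6.60% to 7.25%).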

Additional observations from a re-analysis of the deposited data

Results flagged for a closer look

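Of 26 sets of 4 pools (13 measures of Endo_a in controls and at day 28), 8 held a pool far from the others by Dixon's 95% criterion. Chance flags about 1 in 20 such sets, and many of these measures share their cells. D28 3 had the lowest share of ECs at day 28, 83.8% against 90.2% in the next pool. Control 2 had the highest median UMI count of the controls (914 against 800), the lowest ratio of detected genes to other cells (0.592 against 0.667) and the highest mean mitochondrial percentage (1.56% against 1.05%). D28 1, the most deeply read pool, had the highest ratio of detected genes at 1000 to 2000 UMIs (1.04 against 0.882), the highest mean mitochondrial percentage at day 28 (0.0650% against 0.0136%) and the lowest share of cells without a mitochondrial UMI (60.8% against 91.5%). D28 4 had 196.5 Endo_a cells per EndoVR/papilla cell against 18.9.

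Day 84 differed from day 28 by a test of the difference itself in the log2 odds of the share of ECs (-1.63, limma adjusted p = 0.0156), those of the share of cells other than proximal tubule (-0.71, adjusted p = 0.0373), and the log2 ratio of detected genes at 1000 to 2000 UMIs (-0.22, adjusted p = 0.0270). In each, both day 84 pools lay below all 4 day 28 pools. Each call was lost in the fit on these 2 groups alone, with an adjusted p of 0.0627, 0.0791 and 0.0911 in that order. The log2 ratio of Endo_a to Endo_b cells also differed between these times (-2.51, limma adjusted p = 0.0079), and it was 1 of 7 ratios of 24 to do so.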

How the results depend on the processing

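The rise of Endo_a among ECs at day 28 kept its direction in all 10 alternatives, its call in the 9 of them that have a test, and both with each pool left out. Among the 10, the fit without EndoVR/papilla repeats the ratio of Endo_a to Endo_b. Of 164 alternative values other than pools left out, 124 kept direction and side of the threshold (for counts, within 1.5 times). The day 84 values rest on 2 pools, many of their Endo_a cells lie near the gene floor, and barcode sharing leaves group and droplet run inseparable. A range of 2000 to 4000 UMIs could not be fitted, since it left under 20 Endo_a cells in a pool. Causes of the changes below were not tested.

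Under the stricter cell filter, the share of ECs at day 84 changed by -0.23, that of all cells by -1.37 from control and -1.53 from day 28, and that without proximal tubule cells by 0.41 at day 28 and -1.28 at day 84. UMI count relative to the pool changed by -0.30 at day 28 and 0.36 from day 28 to day 84, and detected genes by -0.20 and 0.24. The ratios at day 84 then held 0 rises by limma (1 rise at an unadjusted p under 0.05) and 15 falls from control, and 11 falls from day 28. This filter took out a larger part of Endo_a than of the other cells together at day 84, which by itself moves these counts. Without EndoVR/papilla the share of ECs at day 84 changed by -0.87. In fits on 2 groups, the changes of -1.63 (share of ECs), -0.71 (without proximal tubule cells) and -0.22 (genes at matched depth) from day 28 to day 84 and of 0.40 (without proximal tubule cells) at day 28 lost their calls, the last also in the exact test. On the arcsine scale the share of all cells changed by -0.0508 from day 28 to day 84 and passed.

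With other ECs as baseline, UMI count changed by 0.53 at day 28 and -0.29 from day 28 to day 84, detected genes by 0.49 and -0.31, and genes at matched depth by 0.12 at day 28, -0.16 at day 84 and -0.28 between them. The share without mitochondrial UMIs changed by -0.41 at day 84 and -2.54 from day 28, and the mitochondrial percentage by -0.040 at day 28 and 0.067 at day 84. With equal weight of clusters, UMI count and genes changed by 0.095 and 0.090 at day 28. At 500 to 1000 UMIs, genes changed by 0.23 at day 28 and 0.047 at day 84. At 1000 to 2000 UMIs, the share without mitochondrial UMIs changed by -1.47 from day 28 to day 84, and the mitochondrial percentage by -0.071 and 0.073 at days 28 and 84.

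With 1 pool left out, ranges that crossed the threshold were, from day 28 to day 84, -1.86 to -1.52 (share of ECs), -0.77 to -0.67 (without proximal tubule cells) and -0.33 to -0.11 (genes at matched depth, lost without D84 2). At day 28 they were 0.33 to 0.48 (without proximal tubule cells), -0.27 to -0.16 (UMI count, passing without Control 2 or D28 4) and 0.0929 to 0.135 (spread of UMI counts), and at day 84 -0.35 to -0.13 (genes at matched depth). The share without mitochondrial UMIs ran from -0.78 to 1.65 from day 28 to day 84, passing in no fit and negative without D84 2. The ratios held 0 to 4 rises at day 84 (4 without D28 4), and from day 28 to day 84 0 to 1 rises (1 without D28 4) and 0 to 9 falls (4 without D28 2, 0 without D84 1, 2 without D84 2).

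Control and day 28 pools share numbers only: deviations of same-numbered pools correlated from -0.32 to 0.16 over clusters as shares of ECs and their like, and from -0.42 to 0.54 as shares of all cells. With the replicate number as a block the change at day 28 was 2.18 (adjusted p = 0.0034) for the share of ECs, with 17 clusters called in place of 19, 0.15 (adjusted p = 0.60) for all cells, with 20 in place of 22, and 0.40 (adjusted p = 0.0571) without proximal tubule cells, with 18 in place of 19. For the share of ECs, 0 control pools and 0 day 28 pools correlated best with their own number. For all cells 2 control pools and 1 day 28 pool did, and without proximal tubule cells 1 and 1.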

Other observations

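Endo_a cells sat in droplets shared with another pool about as often as other cells. In controls, 58.8% of Endo_a cells and 57.4% of other cells carried a droplet barcode also found in another control pool. At day 28 these values were 49.1% and 48.5%, and at day 84 they were 24.2% and 24.7%. The same full barcode, probe barcode included, was found in another pool for 3.10% of Endo_a cells in controls, 4.02% at day 28 and 4.29% at day 84, against 3.27%, 4.13% and 4.46% of other cells. UMI counts were fractional in all cells of Control 1 and whole in the 9 other pools.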
